A study of Mus musculus with 4 samples.

Results

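Integrin circRNAs are the circular RNAs made from 5 mouse integrin genes: Itgav and Itga8, which encode α subunits, and Itgb1, Itgb5 and Itgb8, which encode β subunits. A circRNA is a closed RNA loop that forms when a downstream splice site is joined back to an upstream one, and each was counted by the reads that cross this back-splice junction. A circRNA was taken as a member when both junction ends lay inside the RefSeq span of one of these genes, with a tolerance of 1 bp. This gave 52 circRNAs of the 40909 listed, with 2339 of 4278181 junction reads. All 52 lay inside no second gene, and all lay on the same strand as the other circles of their gene.

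The samples were primary articular chondrocytes, the cells of joint cartilage, grown in serum-containing DMEM. Passage is given as the same range of 1 to 3 for all 4 samples, so the passage of each library is not known. The treated group (2 libraries) received recombinant human interleukin-1β (IL-1β), an inflammatory cytokine of the arthritic joint, for 24 h at 10 ng/ml. The other 2 were control libraries whose source label names no cytokine (the treatment text in the labels is the same for all 4 samples, so the source label set the groups). The labels name no genetic change, strain, age or number of animals, and leave unsaid if a group's 2 libraries are separate cultures, so every p-value rests on library-to-library spread that may be technical. RNA was depleted of ribosomal RNA and digested with RNase R, which removes linear RNA, so the counts describe circles and not the mRNA or the surface protein.

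Integrins are receptors made of 1 α and 1 β subunit that bind the matrix outside the cell and link it to the actin cytoskeleton. The αv subunit pairs with several β subunits and binds RGD motifs in vitronectin, fibronectin and latent TGF-β, whereas α8 pairs with β1 and binds nephronectin, tenascin and fibronectin. The β1 subunit is the common partner of most α subunits in cartilage, and β5 and β8 each pair with αv, β5 as a vitronectin receptor and β8 as an activator of latent TGF-β.

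Depth was 895774 and 980542 junction reads in the treated samples, and 1198010 and 1203855 in the untreated ones. Levels are given as CPM, junction counts per 1e6 reads scaled by TMM factors. A count of 0 allows up to 3 reads. For single circRNAs this is 3.30 and 3.08 CPM in the treated samples and 2.57 and 2.46 CPM in the untreated ones, and for sums over a gene, which have TMM factors of their own, 3.27 and 3.03 CPM and 2.51 and 2.57 CPM. These floors, and the intervals below, cover counting error only. Of the chondrocyte markers, circRNAs were listed for Sox5, Sox6 and Hapln1 and none for Acan, Col2a1, Sox9, Comp, Matn3 and Prg4, which circle counts alone cannot read as absence of the mRNA. None of 5 macrophage markers had a circRNA. The 1 endothelial marker with a circle, Pecam1, had 8 reads in 1 IL-1β library, and the 1 muscle marker, Ttn, had 7 in 1 control. Of 6 fibroblast markers 4 had circRNAs (Col1a1, Col1a2, Col3a1 and Pdgfra), and Dcn and Thy1 had none.

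The main question was whether integrin circRNA output, a gene's junction reads added up across its circles, differed with IL-1β. Output was lower with IL-1β for Itga8 and Itgb5, with no overlap between the groups, and neither passed an adjusted p of 0.05. Itgav and Itgb8 had higher values with IL-1β and Itgb1 overlapped. Of the 5 genes, 0 passed edgeR's quasi-likelihood test with Benjamini-Hochberg adjustment over 4879 hosts, where 0% of all hosts passed. DESeq2 also passed 0 of the 5, and 55 of all hosts. With no adjustment, 2 of 5 passed p under 0.05 on the lower side, against 2.46% of all hosts, and 0 of 5 on the higher side, against 2.09%. The groups did not overlap for 2 of 5 on the lower side and 2 of 5 on the higher side, where 18.9% and 17.0% of all hosts were so placed. Log2 changes below 0 were found for 2 of 5 genes and for 52.0% of all hosts, and their median was 0.45 against -0.03 for all hosts. Scaling by the depth behind the authors' SRPBM unit, a read count divided by 1 constant per library, moved the median of all hosts to -0.24 and that of all circRNAs from -0.05 to -0.28, so values under that scaling are read against those medians.

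Itga8 had the lowest log2 change of the 5 genes. The gene (chromosome 2, 12106632 to 12301985, minus strand, mm10) gave 34 and 20 reads with IL-1β, compared with 115 and 107 in the control pair. Both control libraries stood well above both IL-1β libraries. The level was 28.7 ± 11.9 CPM with IL-1β, the control mean being 93.9 ± 3.18 CPM (mean ± SD, n = 2 each), 3.28-fold lower, a log2 change of -1.71 ± 0.56 (SE; unadjusted p = 0.0149, adjusted p = 0.882 in edgeR). In DESeq2 the adjusted p was 0.0622. Fewer cells carrying these circles and fewer circles per cell cannot be told apart in bulk RNA.

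Itgb5 (chromosome 16, 33829665 to 33949338, plus strand) gave 185 and 211 reads with IL-1β against 449 and 369 in control. Again both controls were above both IL-1β libraries. The level was 208 ± 8.18 CPM with IL-1β, the control mean being 346 ± 41.9 CPM, 1.67-fold lower, with a log2 change of -0.74 ± 0.26 (SE; unadjusted p = 0.0219, adjusted p = 0.882 in edgeR). The DESeq2 adjusted p was 0.112. The summed level of the fibroblast markers was also lower. It ranged from 65.7 to 87.3 CPM in the IL-1β libraries and from 140 to 206 CPM in the controls. All 4 tested fibroblast markers had log2 changes below 0, against 52.0% of all hosts, with a median of -0.98. Their unadjusted edgeR p ran from 0.101 to 0.711. The groups lay apart for Col1a1 and Pdgfra and overlapped for Col1a2 and Col3a1. Col1a2 alone gave 112 CPM in control 2, against 40.1 CPM in control 1. The summed level of the chondrocyte markers overlapped, at 265 and 321 CPM with IL-1β against 402 and 237 CPM in control, but one of them, Sox6, a transcription factor of cartilage, was also lower in both IL-1β libraries. Sox6 gave 64.4 and 66.7 CPM against 124 and 86.5 CPM, a log2 change of -0.69 ± 0.44 (SE; adjusted p = 0.882 in edgeR). Sox5, the other tested chondrocyte marker, overlapped, at 200.7 and 253.8 CPM with IL-1β against 277.5 and 144.7 CPM in control. The log2 change of Sox5 was 0.11 ± 0.37 (SE). The part of these markers in the lower Itga8 and Itgb5 values was not tested.

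Itgav (chromosome 2, 83722303 to 83806917, plus strand) gave 140 and 165 reads with IL-1β, compared with 170 and 108 in the control pair. After scaling for depth the level was 160 ± 10.0 CPM with IL-1β, the control mean being 117 ± 35.1 CPM, with a log2 change of 0.45 ± 0.37 (SE; adjusted p = 0.984 in edgeR). The IL-1β libraries, at 153 and 167 CPM, lay above the controls at 142 and 92.5. Control 2 was the low library. With SRPBM scaling, which moves all genes toward lower values with IL-1β, the log2 change was 0.19 beside the median of -0.24 over all hosts. On that scale the groups overlapped, at 11.7 and 12.3 with IL-1β against 14.4 and 6.71 in control.

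Itgb1 (chromosome 8, 128685654 to 128733579, plus strand) had 38 and 82 reads with IL-1β, compared with 80 and 19 in the control pair. The spread between the 2 controls, 66.9 and 16.3 CPM, was wider than the difference between the group means of 62.2 and 41.6 CPM. The log2 change was 0.58 ± 0.76 (SE; edgeR adjusted p = 1.00 when rounded), and it was -0.10 without control 2.

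Itgb8 (chromosome 12, 119162803 to 119238276, minus strand) was the rarest member, with 13 and 28 reads with IL-1β, compared with 0 and 6 in the control pair. Its level of 21.3 ± 9.99 CPM with IL-1β against 2.57 ± 3.63 CPM in control rests on 47 reads, and the log2 change of 2.99 ± 2.17 (SE; adjusted p = 0.933 in edgeR) was less than 2 standard errors from 0. With a filter of 50 reads the gene was not tested.

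**Figure D1:**
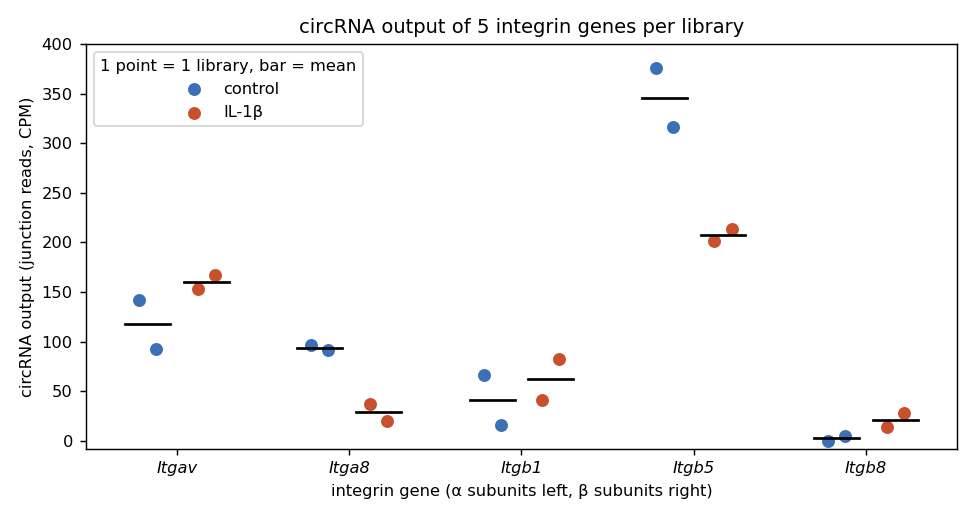
circRNA output (y axis, junction reads in CPM) of the 5 integrin genes, with 1 point for each library and a bar at the mean of each group. Both IL-1β points lie below both control points for Itga8 and Itgb5 and above them for Itgav and Itgb8, and the groups overlap for Itgb1.

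The genes differed widely in how much circRNA they gave. A junction is 1 position, so these levels are not divided by gene length. In control the order was Itgb5 (346 CPM), Itgav (117), Itga8 (93.9), Itgb1 (41.6) and Itgb8 (2.57), and with IL-1β it was Itgb5 (208 CPM), Itgav (160), Itgb1 (62.2), Itga8 (28.7) and Itgb8 (21.3). The control ranges of Itgav (92.5 and 142) and Itga8 (91.6 and 96.1) overlapped, as did the IL-1β ranges of Itga8 (20.2 and 37.1) and Itgb8 (14.2 and 28.3). All other neighbours in these orders were separated in both of their libraries. By total reads Itgb5 ranked at 689 among 6930 host genes and Itgav at 1211. Itga8 ranked at 1889, Itgb1 at 2115 and Itgb8 at 3820.

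As a set the 5 genes gave 447 and 512 CPM with IL-1β, as against 680 and 522 CPM in control, 1.25-fold lower on average. Control 2 lay only just above the higher IL-1β library. Without Itga8 the groups overlapped, at 410 and 491 CPM against 584 and 430 CPM. Without Itga8 and Itgb5 they also overlapped, and the mean was 1.51-fold higher with IL-1β, at 243 ± 49.3 CPM against 161 ± 67.2 CPM. The split of these reads among the genes is given next. Itgb5 gave 45.1% and 41.7% of the integrin reads with IL-1β (95% Clopper-Pearson intervals 40.2 to 50.1% and 37.4 to 46.1%) and 55.2% and 60.6% in control (51.7 to 58.6% and 56.6 to 64.5%). Itga8 gave 8.29% and 3.95% with IL-1β (5.81 to 11.4% and 2.43 to 6.04%) and 14.1% and 17.6% in control (11.8 to 16.7% and 14.6 to 20.8%). Itgav gave 34.1% and 32.6% with IL-1β (29.6 to 39.0% and 28.5 to 36.9%) and 20.9% and 17.7% in control (18.1 to 23.8% and 14.8 to 21.0%). Shares within a library sum to a fixed total, so a lower share of one gene raises the others.

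**Figure D2:**
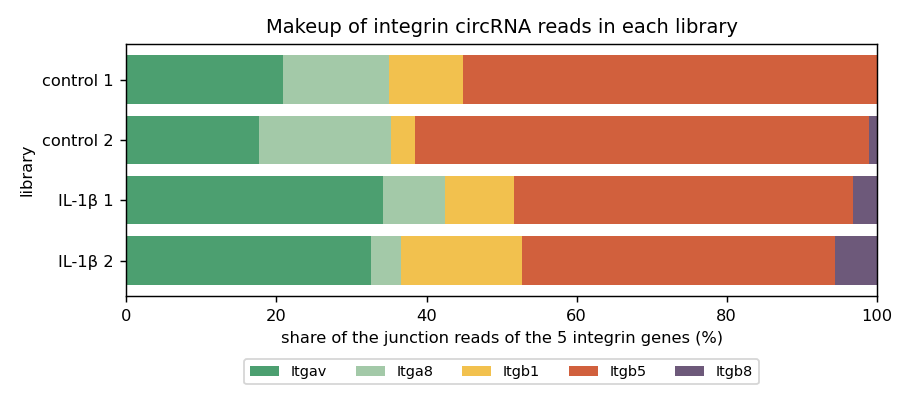
Share of the junction reads of the 5 integrin genes (x axis, %) that each gene gave, with 1 bar for each library. Itgb5 takes the widest part of every bar, 45.1% and 41.7% with IL-1β against 55.2% and 60.6% in control, and Itgav is wider in both IL-1β bars.

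The circles themselves numbered 18 in Itgb5, 14 in Itga8, 11 in Itgav, 6 in Itgb1 and 3 in Itgb8. Most were rare: 29 of the 52 (55.8%) were read in 1 library only, and 8 (15.4%) in all 4, shares close to the 58.6% and 16.8% of all circRNAs. Those 8 carried 65.4% of the integrin reads, against 85.0% for the circRNAs of all genes that were read in every library. They were 5 circles of Itgb5, 2 of Itgav and 1 of Itga8. The median distance between junction ends was 19542.5 bp, against 10570 bp over all circRNAs. It was 26705 bp in Itga8, whose circles reached 75861 bp, and 7257 bp in Itgb1. There were 6 integrin circles (11.5%) found in each control but in no IL-1β library, 4 of them in Itgb5 and 2 in Itga8, and 1 circle (1.92%) with the reverse pattern. Over all circRNAs these shares were 2.72% and 2.45%. Of the integrin circles read in 1 library only, 17 were in an IL-1β library and 12 in a control. Over all circRNAs these counts were 11176 and 12777. The control libraries were the deeper ones, and the part of depth in these counts was not tested.

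Circles of the same gene reused junction ends. Of the 52, 39 (75%) shared at least 1 end with another circle of their gene, close to the 77.9% of all circRNAs with a host. In Itgb5 17 of 18 did so, and in Itga8 13 of 14. The 18 Itgb5 circles used 7 upstream ends and 9 downstream ends, and the upstream end at 33865448 was used by 5 circles, which held 36.0% of the gene's reads. In Itgav 3 of 11 circles shared an end, the upstream end at 83736510, and these held 88.5% of its reads. The upstream end closest to the gene's 5′ end lay 14.2 kb in for Itgav, 15.3 kb for Itgb5, 19.8 kb for Itgb1, 29.7 kb for Itgb8 and 36.7 kb for Itga8. Exons at these ends are not given, since the annotation used here lists whole gene spans.

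**Figure D3:**
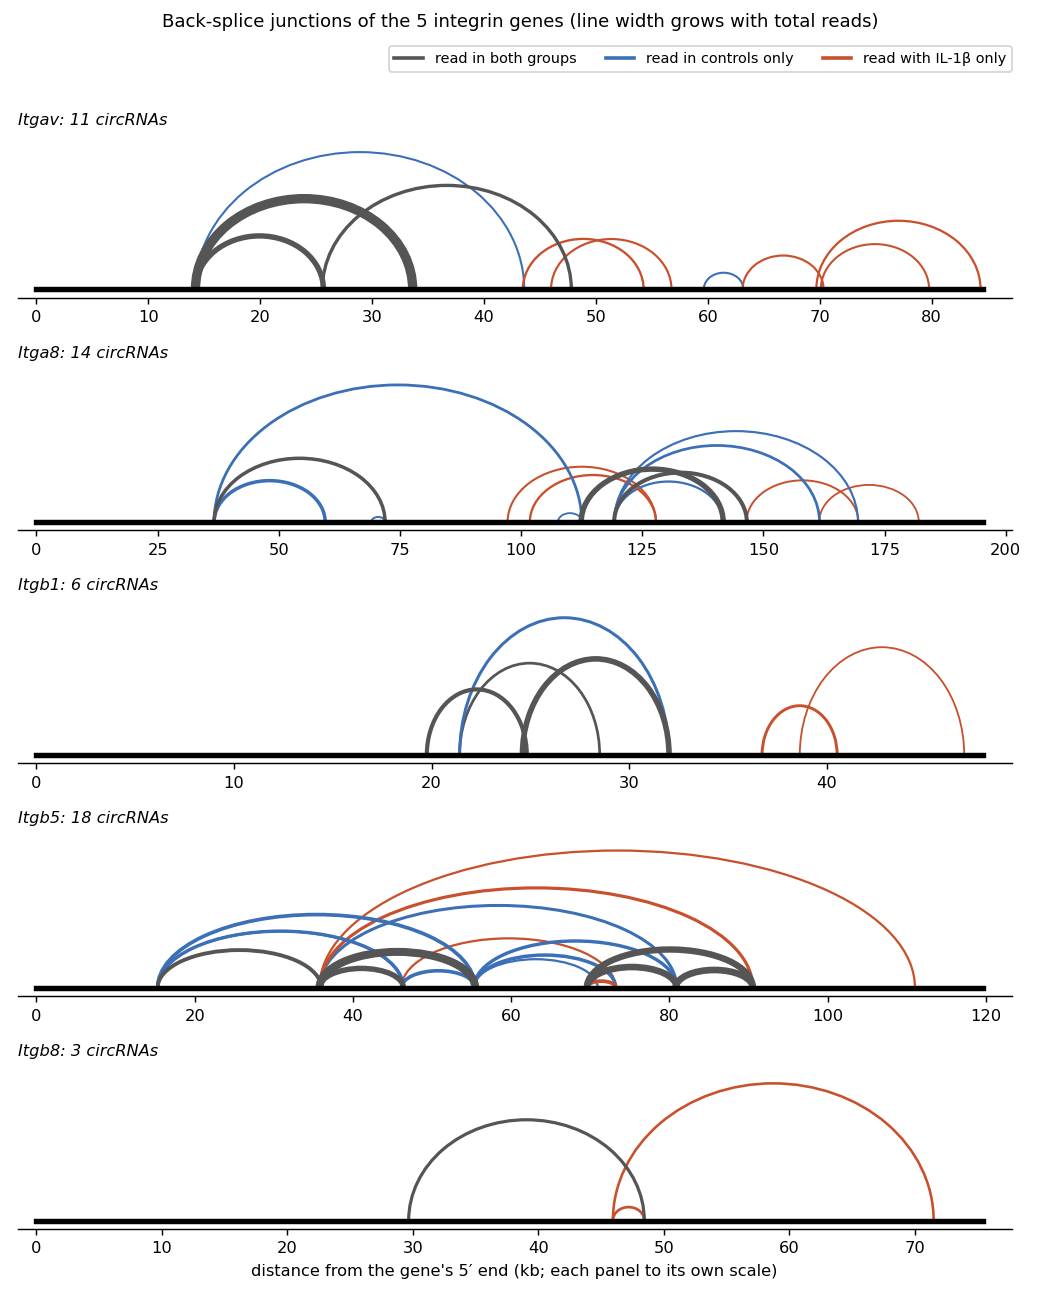
Back-splice junctions of each gene as arcs over a line from the gene's 5′ end (x axis, distance in kb, each panel to its own scale), with line width growing with total reads. Grey arcs were read in both groups, blue in controls only and red with IL-1β only. The arcs of Itgb5 and Itga8 fan out from shared ends, and the thickest arc is the Itgav circle circRNA.23727 with 405 reads.

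The next question was whether single circles followed their gene. Of the 52, 23 had at least 20 reads and were tested, and 0 passed edgeR's test at an adjusted p of 0.05, where 0.0196% of 15333 circRNAs passed. With no adjustment, 0 passed an edgeR p under 0.05 in either direction, against 1.62% of all tested circRNAs on the lower side and 1.83% on the higher side. At an adjusted p of 0.05, 0 passed in DESeq2, where 106 of all did. DESeq2 gave no adjusted p for some rarer circles, circRNA.11959 and circRNA.20997 among them, so these could not pass. Its unadjusted p was 0.0242 for circRNA.11950 (lower with IL-1β) and 0.0127 for circRNA.11959 (higher). Values were lower with IL-1β for 16 of the 23 (69.6%), against 51.7% of all tested circRNAs, and their median log2 change was -1.13 against -0.05. The median was also -1.13 when the 8 circles without reads in 1 group were placed at their bounds, and -0.41 over the other 15, of which 10 were lower. Without control 1, which left 17 tested, 9 were lower. Both IL-1β libraries lay below both controls for 7 of the 23, against 17.2% of all tested circRNAs, and above them for 1, against 16.4%. The 7 were 4 circles of Itgb5 and 3 of Itga8. Circles without reads in 1 group could pass the filter only through the other group: 4 of the 7, and the 1 higher circle, were of this kind. Among these, circRNA.11954 had 2 reads in control 1, and the higher circle, circRNA.11959, had 2 in IL-1β 2. A count of 0 allows up to 3 reads, so neither is separated beyond the floor. Of the 15 circles with reads in both groups, 3 lay below both controls, against 14.8% of all such circRNAs, and 0 above, against 15.4%.

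In Itga8 all 4 tested circles had lower means with IL-1β. The leading one, circRNA.20966 (chromosome 2, 12160322 to 12189620), had 14 and 9 reads with IL-1β, compared with 40 and 45 in the control pair. Both controls were higher, at 35.5 ± 1.84 against 12.3 ± 4.36 CPM (n = 2 each), a log2 change of -1.52 ± 0.94 (SE; adjusted p = 0.886 in edgeR). It held 41.2% and 45.0% of the gene's reads with IL-1β (24.7 to 59.3% and 23.1 to 68.5%) and 34.8% and 42.1% in control (26.1 to 44.2% and 32.6 to 52.0%), so its share differed by less than these counting intervals.

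The Itga8 circle with the lowest p, circRNA.20997 (chromosome 2, 12242411 to 12265333), had 0 reads in either IL-1β library, compared with 17 and 14 in the control pair, at least 4.08-fold lower against a floor of 3 reads per library (adjusted p = 0.886 in edgeR). For circRNA.20964 there were 0 and 8 reads with IL-1β, compared with 17 and 22 in the control pair. Both of these circles were read in every control. The fourth, circRNA.20995, was read in 1 library of each group, with 7 reads with IL-1β, compared with 24 in the control pair. The circles with a shared upstream end at 12182751 were 4, and together they gave 0 and 8 reads with IL-1β, compared with 29 and 34 in the control pair. Of 4 shared ends with at least 20 reads in Itga8, 3 were lower in both IL-1β libraries than in both controls and 0 higher, where 18.3% of 13460 shared ends of all hosts were lower and 16.9% higher.

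In Itgb5 11 of 13 tested circles had log2 changes below 0. The leading circle, circRNA.11950 (chromosome 16, 33865448 to 33885121), had 26 and 49 reads with IL-1β, compared with 101 and 106 in the control pair. The controls were nearly equal and both higher, at 86.6 ± 0.221 CPM against 39.4 ± 15.3 CPM with IL-1β, 2.20-fold lower, with a log2 change of -1.13 ± 0.50 (SE; unadjusted p = 0.0599, adjusted p = 0.886 in edgeR). It held 14.1% and 23.2% of the Itgb5 reads with IL-1β (9.39 to 19.9% and 17.7 to 29.5%) and 22.5% and 28.7% in control (18.7 to 26.6% and 24.2 to 33.6%), so the groups overlapped in share.

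The other 4 Itgb5 circles read in all libraries differed less. For circRNA.11962 (chromosome 16, 33910465 to 33920214) there were 25 and 41 reads with IL-1β, compared with 87 and 28 in the control pair, and for circRNA.11960 (33899241 to 33910599) 36 and 36 against 57 and 47. Control 1 was the high library in both. For circRNA.11961 (33899241 to 33920214) the reads were 43 and 17 against 48 and 55, and for circRNA.11949 (33865448 to 33876051) 19 and 23 against 38 and 28. Their log2 changes lay between -0.48 and -0.19, each smaller than its standard error, and the groups overlapped in CPM in each of the 4.

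Rarer Itgb5 circles were often read in 1 group only. With 0 reads in both IL-1β libraries, circRNA.11947 had 20 and 16 in control, circRNA.11958 15 and 13, and circRNA.11954 2 and 32. These are at least 4.74-, 3.69- and 4.38-fold lower against the floor of 3 reads per library, bounds that leave out differences between libraries. Counts of this size can fall to 0 in 1 library of a group: circRNA.11946 had 27 reads in control 1 and 0 in control 2, and circRNA.11957 had 0 and 30. The 1 circle with the reverse pattern, circRNA.11959 (chromosome 16, 33899241 to 33902883), had 36 reads in IL-1β 1, 2 in IL-1β 2 and 0 in either control, and its mean rests on IL-1β 1 (at least 8.29-fold higher, adjusted p = 0.886 in edgeR).

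The shared ends of Itgb5 differed in how far their circles were apart between groups. The 3 circles that end downstream at 33885121 together gave 28.6 and 50.2 CPM with IL-1β, as against 105 and 126 CPM in control. The 3 that end at 33910599 gave 39.6 and 36.9 CPM against 65.9 and 60.6 CPM. Both of these ends were lower in both IL-1β libraries. The 3 that end at 33920214 gave 74.7 and 82.0 CPM against 116 and 67.9 CPM, and the 3 that start upstream at 33899241 gave 126 and 56.4 CPM against 89.9 and 83.5 CPM, with overlap in each. In all, 5 of 10 shared Itgb5 ends with at least 20 reads were lower without overlap and 0 higher, beside the 18.3% and 16.9% of all shared ends. Among the 5, the upstream end at 33884953 had 0 reads in both IL-1β libraries, compared with 21 and 43 in the control pair. That end could pass the filter of 20 reads only through the controls. For Itgb8 the counts were 0 of 2 lower and 2 of 2 higher, and for Itgav and Itgb1 all 3 shared ends overlapped. The Itgb8 end at 119192327 had no reads in control, so it could pass the filter only through the IL-1β libraries. Both Itgb8 ends include circRNA.5621, with 13 reads in IL-1β 1 alone, so their counts rest in part on the same reads. A circle counts at both of its ends, and circles that share an end are not independent of each other.

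**Figure D4:**
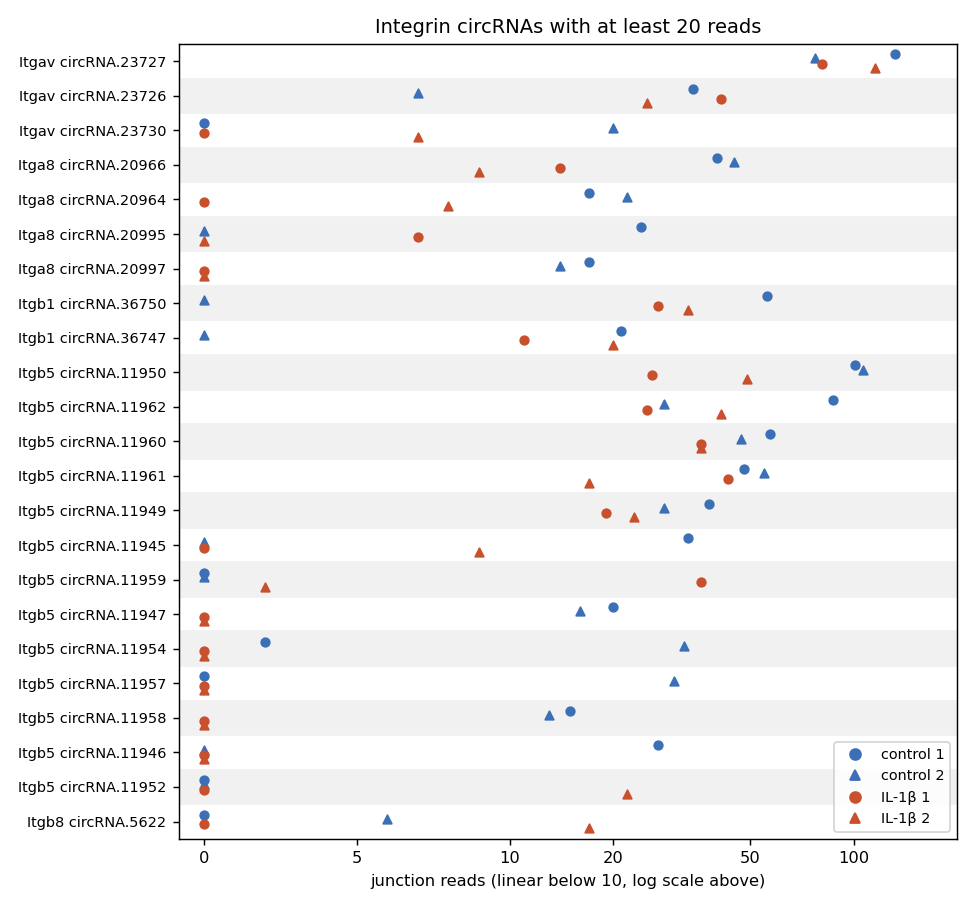
Junction reads (x axis, linear below 10 and on a log scale above) of the 23 integrin circRNAs with at least 20 reads, with 1 point for each library, not scaled for depth. Blue points lie to the right of red ones for the leading circles of Itga8 and Itgb5, circRNA.20966 and circRNA.11950, whereas the colours mix for Itgav circRNA.23727, and many of the rarer circles have points at 0.

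In Itgav a single circle dominated. The circle circRNA.23727 (chromosome 2, 83736510 to 83755920) held 69.5% of the gene's reads, with 81 and 115 reads with IL-1β, compared with 132 and 77 in the control pair. The groups overlapped, at 104 ± 20.4 and 88.0 ± 35.3 CPM, and the log2 change was 0.23 ± 0.44 (SE; adjusted p = 1.00 in edgeR). It was -0.13 without control 2. With SRPBM scaling it was -0.05 beside a median of -0.28 over all circRNAs, so relative to the median it stayed on the higher side. Its share of the Itgav reads was 57.9% and 69.7% with IL-1β (49.2 to 66.1% and 62.1 to 76.6%) and 77.6% and 71.3% in control (70.6 to 83.7% and 61.8 to 79.6%). Both IL-1β shares were below both control shares, but the counting intervals lay apart for IL-1β 1 and control 1 alone, and with 2 libraries a group an exact two-sided permutation test cannot go below p = 0.33. In IL-1β 1 a further 9 reads were listed for circRNA.23729, whose ends lie within 5 nt of those of circRNA.23727.

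The second Itgav circle, circRNA.23726 (chromosome 2, 83736510 to 83747944), starts at the same upstream end and had 41 and 25 reads with IL-1β, compared with 34 and 7 in the control pair. Only control 2 was low, and the log2 change of 1.02 ± 1.05 (SE) did not pass (adjusted p = 1.00 in edgeR). It was 2.57 without control 1 and 0.28 without control 2. For circRNA.23730 (83747853 to 83770105) there were 0 and 7 reads with IL-1β, compared with 0 and 20 in the control pair. The remaining 8 Itgav circles had between 4 and 9 reads, each in 1 library.

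The Itgb1 values turned on control 2. The leading circle, circRNA.36750 (chromosome 8, 128710253 to 128717674), had 27 and 33 reads with IL-1β, compared with 56 and 0 in the control pair, and circRNA.36747 (128705413 to 128710475) had 11 and 20 against 21 and 0. Control 2 had reads in 1 Itgb1 circle only, circRNA.36749 (128707074 to 128717674), with 19, and this circle had 0 in the other libraries. It ends at the same downstream position as circRNA.36750, and together these 2 circles gave 29.7 and 33.8 CPM with IL-1β, as against 47.9 and 15.6 CPM in control. Without control 2 the log2 change of circRNA.36750 moved from 0.41 to -0.59 and that of circRNA.36747 from 0.85 to -0.14.

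The 3 Itgb8 circles were each read in 1 or 2 libraries. The leading one, circRNA.5622 (chromosome 12, 119189819 to 119208604), had 0 and 17 reads with IL-1β, compared with 0 and 6 in the control pair. For circRNA.5621 (119189819 to 119192327) there were 13 reads in IL-1β 1 alone, and for circRNA.5620 (119166755 to 119192327) 11 in IL-1β 2 alone. No Itgb8 circle was therefore read in both libraries of a group, although the gene's sum was above 0 in both IL-1β libraries. The 2 circles that share the upstream end at 119192327 gave 13 and 11 reads with IL-1β and none in control.

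Among all 26 mouse integrin subunit genes, circRNAs were listed for 14 and 11 were tested, of which 6 had higher and 5 lower log2 changes and 0 passed an adjusted p of 0.05 in edgeR or in DESeq2. At an unadjusted edgeR p under 0.05 there were 3 on the lower side, beside 2.46% of all hosts, and 0 on the higher side, beside 2.09%. The groups did not overlap for 4 lower and 2 higher genes, where 18.9% and 17.0% of all hosts were so placed. Among the 4 lower genes, Itga3 and Itga10 had 0 reads in both IL-1β libraries. Both could pass the read filter only through the controls, so neither could have come out higher. The median log2 change of the 11 tested genes was 0.10. Setting genes with a group at 0 to their bound left this median and those of the lists below as given. Besides Itga8 and Itgb5, the third was Itga10, which encodes a collagen-binding α subunit of cartilage. Its 1 circle had 0 reads in either IL-1β library, compared with 25 and 18 in the control pair, at least 5.76-fold lower (unadjusted p = 0.0451, adjusted p = 0.882 in edgeR). The leukocyte genes Itgal, Itgam and Itgax had no circRNA, and Itgb2, which encodes their partner, had 0 and 19 reads with IL-1β, compared with 3 and 18 in the control pair.

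Of 36 genes listed as integrin ligands, 18 were tested: 4 had higher and 14 lower log2 changes, with a median of -0.46, where 52.0% of all hosts were lower. In this list 0 passed in edgeR or in DESeq2, and 1 in each direction had an unadjusted edgeR p under 0.05, beside 2.46% of all hosts on the lower side and 2.09% on the higher. The groups did not overlap for 6 lower and 2 higher genes (all hosts: 18.9% and 17.0%). The list shares 3 genes with the fibroblast markers, whose lower sum with IL-1β was given above. Tgfb2, a TGF-β ligand, gave 69 and 36 reads with IL-1β, compared with 19 and 8 in the control pair, a log2 change of 2.28 ± 0.88 (SE; adjusted p = 0.882 in edgeR). Whether integrins bind the product of Tgfb2 was not tested. The collagen VI gene Col6a3 gave 9 and 7 reads against 63 and 41, and the thrombospondin gene Thbs2 gave 0 in both IL-1β libraries against 9 and 27. Thbs2 could thus pass the read filter only through the controls. Tgfb2 was thus above control in both IL-1β libraries, and the other two were below.

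Of 33 genes for integrin activation and adhesion sites, 25 were tested, with 11 higher, 14 lower, a median of -0.11, and 0 passed in edgeR or in DESeq2. The groups did not overlap for 7 lower and 6 higher genes (all hosts: 18.9% and 17.0%). The 3 with an unadjusted edgeR p under 0.05 were all lower with IL-1β, beside 2.46% of all hosts on the lower side and 2.09% on the higher. Pxn (paxillin, an adhesion adaptor) gave 14.2 ± 0.0166 CPM with IL-1β, the control mean being 67.1 ± 25.1 CPM, and Vcl (vinculin, which links talin to actin) 82.3 ± 3.76 and 174 ± 15.0 CPM over 22 circles. Kank1, an adaptor that binds talin, had 0 reads in either IL-1β library, compared with 41 and 20 in the control pair, at least 8.15-fold lower. Kank1 could thus pass the filter of 20 reads only through the controls. The adjusted p was 0.882 in edgeR for each of these 3.

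Of 22 genes for integrin inactivation and trafficking, 15 were tested, with 8 higher, 7 lower, a median of 0.16, and 0 passed in edgeR (also 0 at an unadjusted p under 0.05) or in DESeq2. The groups did not overlap for 1 lower and 6 higher genes (all hosts: 18.9% and 17.0%). Rab4a, a small GTPase of fast recycling, had 0 reads with IL-1β, compared with 19 and 21 in the control pair, at least 5.37-fold lower. Rab4a could thus pass the read filter only through the controls. Clta, a clathrin light chain, gave 13 and 61 reads with IL-1β, compared with 14 and 6 in the control pair, and Numb, an endocytic adaptor, 33 and 38 against 0 and 17. The adjusted p was 0.882 in edgeR for each.

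The host genes whose output over the 4 libraries was most like that of each integrin gene were found among 2209 hosts with at least 200 reads, by the root mean square difference of centred log2 levels. Cdon, which encodes a cell-surface co-receptor of hedgehog signalling, was closest to Itga8, with a difference of 0.211 (median over hosts 0.964), and had 25 and 20 reads with IL-1β, compared with 77 and 85 in the control pair. Ankrd27, a regulator of endosomal Rab proteins, was closest to Itgb5 (0.0608, median 0.470). Spidr, a scaffold in DNA repair, was closest to Itgav (0.0376, median 0.435), and Cpeb1, which binds mRNA 3′ ends, to Itgb1 (0.114, median 0.914). A pseudocount of 1 CPM was added, and these are descriptions over 4 libraries. The closest of 2209 hosts lies below the median by selection, so the gap to the median carries no weight.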

How the data were processed

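Junction reads of 4 libraries were analysed. The authors deposited unnormalised counts of back-splice reads by circRNA, per the file headers, and SRPBM, a depth-scaled signal that equals the count divided by 1 constant per library (11.9 and 13.4 for IL-1β, 11.8 and 16.1 for control). The submitters' processing notes name Bowtie2 and mm10. The caller, its filters and any removal of duplicates were not given in the sources used here. Genes came from RefSeq on GRCm38.p6, and 39571 circRNAs had 1 host. Features with at least 20 reads were fitted over the whole table by the quasi-likelihood test of edgeR 4.0.16 under R 4.3.3 (TMM, no covariate, Benjamini-Hochberg at 0.05), tested on simulated data first. Standard errors are the log2 change over the square root of F. DESeq2 1.42.0 was an alternative, and scipy 1.17.1 in Python 3.11.15 gave intervals. Members, lists and tests were chosen with earlier results of these data known. Named circles are the one with the most reads in each gene, those with at least 200 reads and the lowest p in each direction. Other circles (0 reads, shared ends, read in all libraries), Itgb2, Pecam1 and Ttn and the counts over circles with reads in both groups and over shared ends were chosen after values were seen, and at most 3 genes with the lowest p were named from each pathway list. No junction sequence is shown, since no genome was used here.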

Additional observations from a re-analysis of the deposited data

How the results depend on the processing

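The log2 changes of Itga8 (-2.21 to -1.33), Itgav (0.17 to 0.83) and Itgb5 (-0.96 to -0.57) kept their sign under all 13 alternatives and that of Itgb8 (2.06 to 7.47) under the 11 that could test it, and none of the 5 genes passed 0.05 under any. Itgb1 turned to -0.001 without IL-1β 2 and to -0.10 without control 2, in a range of -0.103 to 1.96 with 1 library left out. Itgav circRNA.23727 was -0.052 with SRPBM scaling, which moved the median of all circRNAs from -0.05 to -0.28, so its sign turned with that shift and it stayed above the median. Without control 2, it, circRNA.36750 and circRNA.36747 turned to -0.13, -0.59 and -0.14 (highest with 1 library left out: 0.69, 8.03 and 7.08, each without control 1). Over all circRNAs, 3 passed in edgeR, against 106 in DESeq2, 61 with the replicate block, 0 with at least 50 reads, 61 with no filter, 0 with junctions within 5 nt summed and 0 to 4 with 1 library left out (0 without either IL-1β library, 1 without control 2, 4 without control 1). Over all hosts, 0 passed, against 55, 20 with the replicate block, 12 with no filter and 0 to 2 with 1 library left out. The replicate number is only a shared number: deviations of same-numbered libraries correlated at -0.033 over circRNAs and 0.032 over hosts, and no integrin circRNA or gene passed with the block. Of the tested integrin circRNAs, 6 of 10 were lower with at least 50 reads, 28 of 52 with no filter and 9 to 16 with 1 library left out (9 of 17 without control 1). Counting only circles with at least 20 reads, the share of the leading circle rose in Itga8 and Itgav, because rarer circles leave the sum. It became 59.8% (IL-1β) and 48.2% (control) in Itga8 and 72.3% (IL-1β) in Itgav. In Itgb8 only 1 circle had at least 20 reads, so its 100% (IL-1β) was fixed in advance. IL-1β 1 had no reads of that circle and left the mean. In Itgb1 the control share went from 35.0% to 72.7%. Control 2 had no reads in the 2 circles counted there and left the mean. Most members have under 50 reads, where a count of 0 in 1 library was frequent.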
